A study of Gallus gallus with 60 samples.

Results

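Calcium-binding proteins and the enzymes of GABA synthesis were followed in the posterior cerebrum of laying hens through 5 genes, which are CALB1 (calbindin), CALB2 (calretinin), PVALB (parvalbumin), GAD1 and GAD2. All probe sets that the annotation of the array gave to one of these symbols were taken, and these were 10 of the 38535 probe sets on the array and 5 of 13009 genes with a symbol. CALB1 was measured by 3 probe sets, CALB2, PVALB and GAD2 by 2 each, and GAD1 by 1, and none of them was annotated to a further gene. The hens were 65 to 67 weeks old and were kept in the same small group housing system. The white layer line Lohmann Selected Leghorn (LSL) was represented by 15 hens from compartments of 54 hens and 13 from compartments of 36, and the brown line Lohmann Brown (LB) by 17 hens from compartments of 54 and 15 from compartments of 36. Tissue came from the left side in 6 hens and from the right side in 54, with 1 array per hen. Where a gene has several probe sets they are called A, B and C, and A is the main one, with the largest spread between hens of one line, group size and array set.

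GABA is the main inhibitory transmitter of the forebrain, and it is made from glutamate by the glutamate decarboxylases. GAD1 encodes the enzyme of the larger size, GAD67, which provides much of the basal GABA in the cell, and GAD2 encodes GAD65, which is found mainly at synaptic terminals. In the mammalian cortex, parvalbumin marks fast-spiking interneurons, while calretinin and calbindin mark other interneurons, but all 3 buffers also occur outside interneurons, as in the Purkinje cells and other cells of the cerebellum. In the striatum of birds and mammals the projection neurons themselves make GABA. RNA of whole tissue was measured here, so fewer cells of a type and less RNA per cell cannot be told apart.

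Each value is a log2 expression value relative to the median of the same probe set, and this median was 0 (within 1e-06) among hens 1 to 30 as well as among hens 31 to 60. These 2 groups of arrays are called array sets below, and both hold both lines (15 LSL and 15 LB hens in the first, 13 LSL and 17 LB hens in the second). A value therefore gives the distance of a hen from her own array set and no level, so neither the presence of a transcript nor of a cell type could be read from it, and levels of different genes could not be compared. Differences between the lines were fitted with limma over all probe sets, with the array set as a block, and a probe set was called at an adjusted p under 0.05. Several arrays stood apart. In LB hens 7, 8 and 16 the 5' minus 3' difference of the actin control, a sign of RNA quality, lay between -2.89 and -1.69, against -1.33 to 0.24 in the other hens. LB hen 54 stood 4.77 above the mean of its line, group size and array set for ZIC1 and 3.61 above it for CBLN1, which are genes of the cerebellum. ZIC2 (1.62) and EN1 (1.24) of the cerebellar list were also above the range of the hens other than 1, 33 and 54. PCP4 (-0.48), ITPR1 (0.27) and ATOH1 (0.030) of that list lay within the range. LSL hen 1 stood 2.98 above the mean of its group for LHX9, a gene of the thalamus and tectum. For the other measured genes of thalamus and tectum it lay within the range of the hens other than 1, 33 and 54. Among those hens OTX2, a further gene of this kind, reached 3.22. Of the genes of striatal neurons, FOXP1 (-1.93) and TAC1 (-2.27) were low in hen 1, while PENK (0.40) and RGS9 (0.37) were not. LSL hen 33 stood 2.44 above the mean of its group for HBAD, a globin of red blood cells. The hens other than 1, 33 and 54 reached at most 0.95. This hen was also high for the striatal genes PENK (1.49) and ISL1 (1.31), but within the range of other hens.

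Between the lines, PVALB was lower in LSL and one probe set each of CALB1 and CALB2 was higher, whereas no probe set of GAD1 or GAD2 passed the test. Of the 10 probe sets, 4 were called, 2 of them higher and 2 lower in LSL, and 6 had an unadjusted p under 0.05. Over the whole array 7051 probe sets were called, which is 18.3% of them, with 8.13% higher and 10.2% lower. The median line difference was -0.011 for the 10 probe sets and -0.0096 for all probe sets of the array. The genes are given one by one, since they did not move one way and since probe sets of 1 gene share its RNA.

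**Figure D1:**
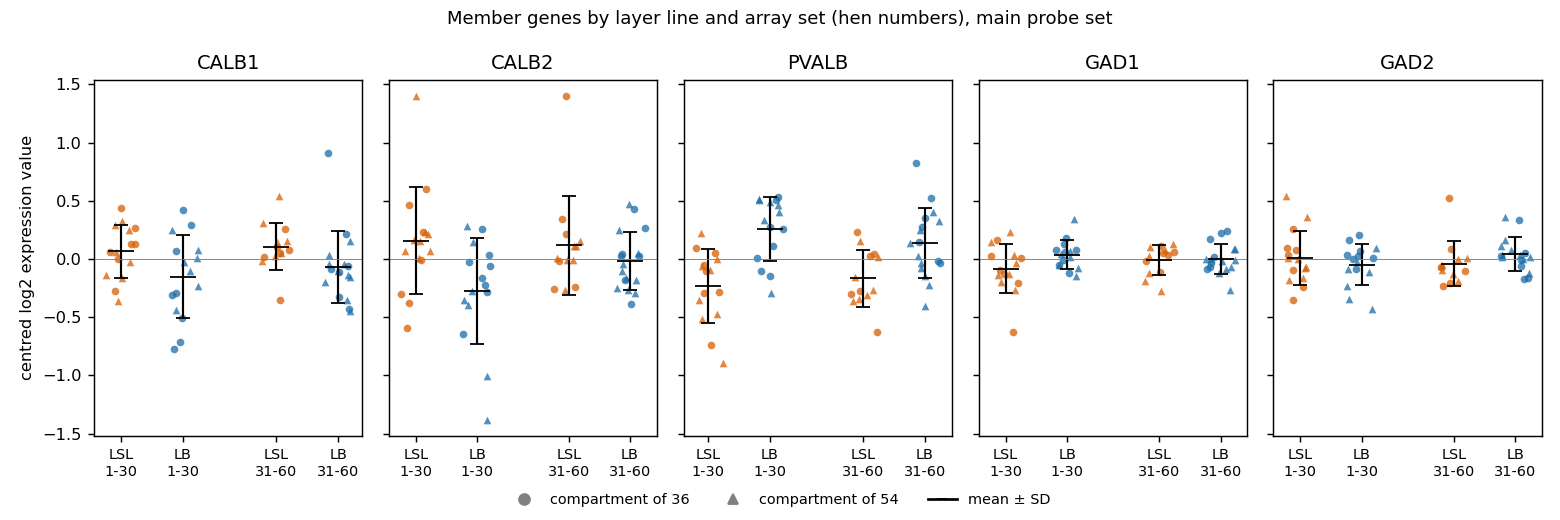
Centred log2 expression value (vertical axis) of every hen at the main probe set of each gene, by line and array set (horizontal axis), with circles for compartments of 36 and triangles for compartments of 54 hens and bars for the mean ± SD. For PVALB all 15 LSL hens of the first array set and 11 of 13 of the second lie below the LB median of their set, while the lines overlap for all 5 genes.

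PVALB encodes a buffer that binds calcium slowly and shortens the calcium signal in fast-spiking cells. At its probe set A, LSL hens of the first array set had values between -0.89 and 0.23 with a median of -0.10, against -0.29 to 0.54 with a median of 0.33 in LB hens. In the second array set LSL hens ranged between -0.63 and 0.23 with a median of -0.27, against -0.40 to 0.83 with a median of 0.14 in LB hens. The ranges of the lines overlapped, but 15 of 15 LSL hens of the first set and 11 of 13 of the second lay below the LB median of their set. The difference was -0.40 ± 0.073 (LSL minus LB on the log2 scale, SE, n = 28 and 32), a 1.32-fold lower value in LSL, with a limma adjusted p of 2.42e-05. It was -0.49 in the first array set (limma adjusted p = 0.00196) and -0.30 in the second (limma adjusted p = 0.0329). In compartments of 54 hens alone it was -0.40, and in compartments of 36 alone also -0.40.

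Probe set B of PVALB was lower in LSL by a smaller amount. In the first array set, LSL hens lay between -0.73 and 0.37 (median -0.11), against -0.40 to 0.53 (median 0.27) in LB hens, and 14 of 15 LSL hens were below the LB median. In the second, LSL hens lay between -0.47 and 0.33 (median -0.032), against -0.28 to 0.56 (median 0.023) in LB hens, and 8 of 13 LSL hens were below the LB median. The difference over both was -0.22 ± 0.072 (SE, n = 28 and 32; limma adjusted p = 0.0196). Within the second array set it was -0.11 and not called (limma adjusted p = 0.522), and without LB hens 7, 8 and 16 it was -0.19 (limma adjusted p = 0.0638). Both probe sets were called in each of the 60 fits that left out 1 hen.

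CALB2 encodes calretinin, a fast calcium buffer. At its probe set A, LSL hens of the first array set had values between -0.59 and 1.40 with a median of 0.15, against -1.38 to 0.28 with a median of -0.23 in LB hens. In the second array set LSL hens ranged between -0.27 and 1.40 with a median of 0.0055, against -0.39 to 0.47 with a median of -0.039 in LB hens. The value of 1.40 belonged to 1 LSL hen of each set, hens 17 and 33. The lowest values were those of LB hens 8 (-1.38) and 16 (-1.01), which had the low actin difference. LB hen 7, which had it too, stood at -0.40. The lines overlapped widely in the second set, although 10 of 13 LSL hens there and 12 of 15 in the first lay above the LB median of their set. The difference was 0.28 ± 0.10 (SE, n = 28 and 32; limma adjusted p = 0.0418), a 1.22-fold higher value in LSL. It was 0.43 in the first and 0.14 in the second array set, and neither was called within a set. The call was lost in 18 of the 60 fits that left out 1 hen, among them those without LSL hen 33 (0.24, limma adjusted p = 0.0794) and LSL hen 1 (0.27, limma adjusted p = 0.0567), and also without LB hens 7, 8 and 16 together (0.20, limma adjusted p = 0.146). Probe set B of the gene differed by 0.22 ± 0.088 (limma adjusted p = 0.0741) and was not called.

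CALB1 encodes calbindin, which in birds is also the vitamin D-dependent calcium carrier of the intestine and the shell gland. Its 3 probe sets went different ways. At probe set A, LSL hens of the first array set had values between -0.36 and 0.43 (median 0.057), against -0.77 to 0.42 (median -0.10) in LB hens. In the second they had values between -0.35 and 0.54 (median 0.078), against -0.45 to 0.91 (median -0.10) in LB hens. The highest LB value there was that of hen 54, the hen that was high for ZIC1 and CBLN1. In the first set 11 of 15 LSL hens and in the second 12 of 13 lay above the LB median, and the lowest LSL hen of each set was above the lowest LB hen. The difference was 0.20 ± 0.072 (SE, n = 28 and 32; limma adjusted p = 0.0461), a 1.15-fold higher value in LSL. It stood close to the threshold, and was called in 27 of the 60 fits that left out 1 hen each, and it was not called with the right side alone (0.17, limma adjusted p = 0.129) or within either array set. Without LB hen 54 it was 0.23 (limma adjusted p = 0.0074). At probe set C the sign was the other way, with a difference of -0.15 ± 0.060 (limma adjusted p = 0.0775), and 13 of 15 LSL hens of the first set but 7 of 13 of the second lay below the LB median. This probe set was called in 1 of the 60 fits that left out 1 hen, the fit without hen 30. At probe set B the difference was -0.013 ± 0.036 (limma adjusted p = 0.871). A line difference of the gene CALB1 as a whole can therefore not be given.

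GAD1 and GAD2 differed little between the lines. GAD1 values of LSL hens lay between -0.63 and 0.23 (median -0.094) in the first array set, against -0.15 to 0.35 (median 0.041) in LB hens. In the second they lay between -0.28 and 0.13 (median 0.030), against -0.27 to 0.24 (median -0.012) in LB hens. Most LSL hens of the first set (12 of 15) were below the LB median and most of the second (8 of 13) above it, and the lowest value was that of LSL hen 1. The GAD1 difference was -0.066 ± 0.040, with a 95% interval of -0.15 to 0.013 (limma adjusted p = 0.279). For GAD2 the differences were -0.0099 ± 0.048 at probe set A (95% interval -0.11 to 0.087, limma adjusted p = 0.929) and 0.0069 ± 0.046 at probe set B (95% interval -0.085 to 0.099, limma adjusted p = 0.949). At probe set A, LSL hens lay between -0.35 and 0.54 in the first set and between -0.23 and 0.52 in the second, against -0.43 to 0.20 and -0.17 to 0.36 in LB hens. The groups overlapped, with 8 of 15 LSL hens of the first set and 11 of 13 of the second below the LB median of their set. The highest LSL values again belonged to hens 17 and 33.

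Whether the line differences themselves changed between the array sets was also tested, and no probe set of the array was called by limma (2655 had an unadjusted p under 0.05). Among the 10 probe sets the smallest unadjusted p of this test was 0.11, for PVALB B, with a change of 0.23 ± 0.14.

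**Figure D2:**
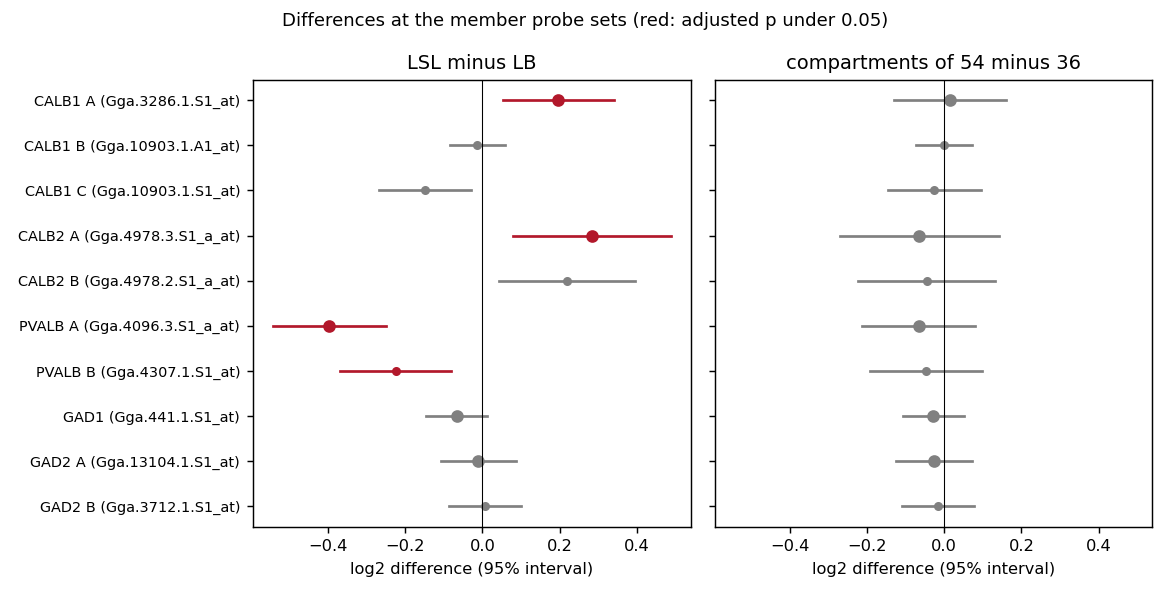
Log2 difference (horizontal axis) with its 95% interval at each of the 10 probe sets (vertical axis), LSL minus LB on the left and compartments of 54 minus compartments of 36 on the right. Larger points mark the main probe set of a gene and red the 4 probe sets called between the lines, and all 10 intervals of the group size difference cover 0.

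The question of the group size was whether hens from compartments of 54 differed from those from compartments of 36, and none of the 10 probe sets was called by limma, nor did any have an unadjusted p under 0.05. Over the array 4 probe sets (0.0104%) were called, 3 higher (0.00779%) and 1 lower (0.0026%), and 3953 had an unadjusted p under 0.05. The differences (54 minus 36) lay between -0.066 and 0.015. They were -0.066 ± 0.073 for PVALB A (95% interval -0.21 to 0.081), -0.064 ± 0.10 for CALB2 A (95% interval -0.27 to 0.14) and 0.015 ± 0.072 for CALB1 A (95% interval -0.13 to 0.16). For GAD1 the difference was -0.028 ± 0.040 (95% interval -0.11 to 0.052) and for GAD2 A it was -0.026 ± 0.049 (95% interval -0.12 to 0.071). Differences as large as that of PVALB between the lines lay outside all of these intervals.

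PVALB A of LB hens can serve as an example of how the group sizes lay. In the first array set LB hens had a median of 0.46 in compartments of 54 and 0.18 in compartments of 36, and in the second array set -0.0038 in compartments of 54 and 0.28 in compartments of 36, so that the order turned between the sets. The test of whether the line difference depended on the group size called no probe set of the array (0%) by limma, with 4975 below an unadjusted p of 0.05. Among the 10 probe sets, 1 was below an unadjusted p of 0.05, CALB1 B, with an interaction of -0.18 ± 0.070 (limma adjusted p = 0.308). Its line difference was -0.099 in compartments of 54 alone and 0.081 in compartments of 36 alone.

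All left sides belonged to the second array set, where 6 left and 24 right sides were compared, and limma called no probe set of the array (0%; 2973 had an unadjusted p under 0.05). None of the 10 had an unadjusted p under 0.05. The difference farthest from 0 was that of PVALB A, -0.20 ± 0.11 (left minus right; 95% interval -0.43 to 0.037, limma adjusted p = 0.72).

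The genes differed in how much they varied between hens of one line, group size and array set. The SD within these 8 groups of 6 to 10 hens was 0.40 for CALB2, 0.29 for CALB1, 0.28 for PVALB, 0.18 for GAD2 and 0.15 for GAD1, each at the main probe set. Of all probe sets on the array, 96.0% had a smaller SD than CALB2, 90.1% a smaller one than PVALB and 56.5% a smaller one than GAD1. In LSL and LB hens the SD was 0.44 and 0.36 for CALB2, 0.22 and 0.34 for CALB1, 0.29 and 0.28 for PVALB, 0.18 and 0.13 for GAD1 and 0.22 and 0.14 for GAD2. These SDs were not tested against each other.

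Probe sets of 1 gene varied together to different degrees. After centring within line, group size and array set, the 2 probe sets of CALB2 had a Pearson r of 0.95 over the 60 hens, and those of PVALB 0.92. Both are the highest that any other probe set of the array reached with them. For GAD2 r was 0.41 (permutation test adjusted p = 0.0145) and Spearman's rho 0.32 (permutation test adjusted p = 0.0305). Without the 2 hens farthest from the median r fell to 0.14, so that much of r came from these hens. The GAD2 pair did not pass in 7 of 15 alternatives. Of CALB1, probe sets A and C had an r of 0.43 (permutation test adjusted p = 0.0145) and a rho of 0.44 (permutation test adjusted p = 0.00318), although their line differences had opposite signs. Probe set B had an r of 0.048 with C and 0.17 with A, and neither passed the test. Of these 6 pairs 4 passed.

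**Figure D3:**
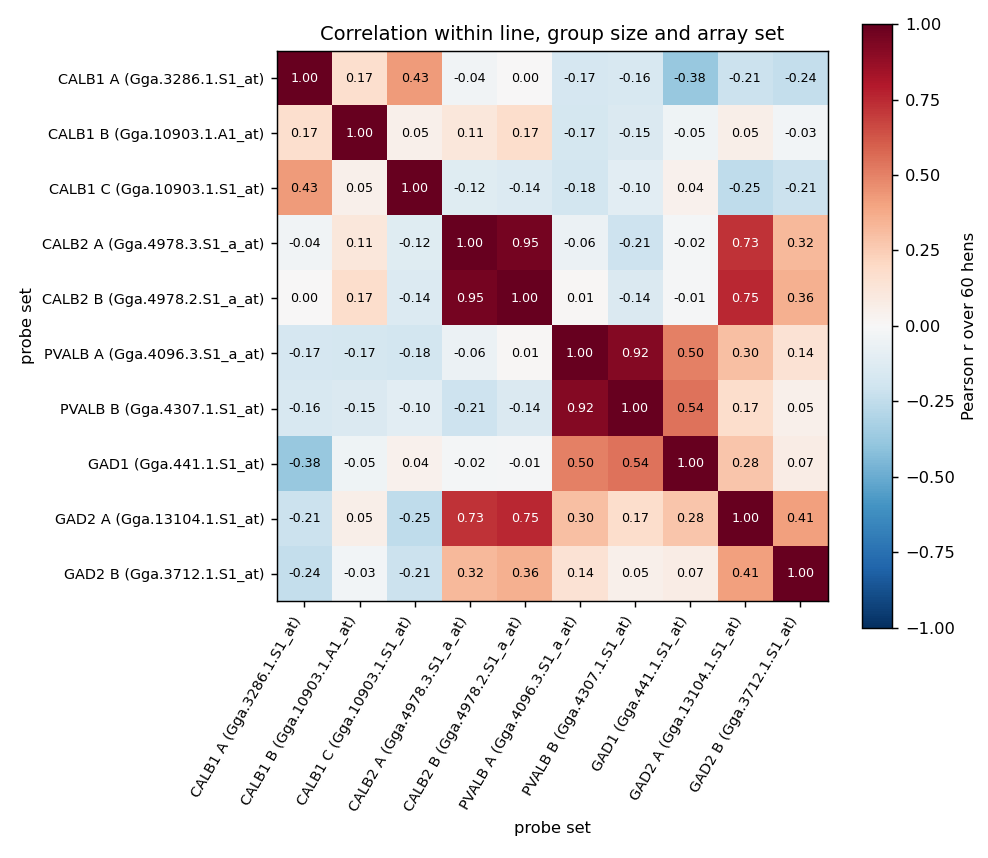
Pearson r over 60 hens (colour and number) between all 10 probe sets (both axes), on values centred within line, group size and array set. CALB2 and GAD2 A form one group with r of 0.73 and 0.75, while GAD2 B has r of 0.32 and 0.36 with CALB2. PVALB and GAD1 form another with r of 0.50 and 0.54. GAD2 A has r of 0.30 and 0.17 with the probe sets of PVALB and 0.28 with GAD1.

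Between hens, GAD2 A varied with CALB2 and GAD1 with PVALB at the main probe sets, and GAD1 also varied against CALB1 A. Of the 10 pairs of genes, 3 passed the permutation test after adjustment over the 10 pairs, and 4 were below an unadjusted p of 0.05. CALB2 and GAD2 had an r of 0.73 (permutation test p = 2e-05, adjusted p = 0.0002) and a rho of 0.55 (permutation test p = 0.00012, adjusted p = 0.0012). The r was 0.77 in LSL and 0.66 in LB hens, and 0.72 in the first and 0.74 in the second array set. Hens 33 and 17 lay high for both genes, with CALB2 at 1.16 and 1.11 and GAD2 at 0.52 and 0.49 above the mean of their group. LB hens 8 and 16, with the low actin difference, lay low for both, with CALB2 at -0.95 and -0.58 and GAD2 at -0.27 and -0.18. Without LB hens 7, 8 and 16, r was 0.69. Without the 2 hens farthest from the median of CALB2, r was 0.57 (permutation test adjusted p = 0.0006). Only 0.013% of the probe sets of the array had an r with CALB2 A as far from 0 as GAD2 A had, with GAD2 A and CALB2 B counted. Probe set B of GAD2 had an r of 0.32 with CALB2 A and 0.36 with CALB2 B.

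PVALB and GAD1 had an r of 0.50 (permutation test p = 0.00014, adjusted p = 0.0007) and a rho of 0.47 (permutation test p = 0.0003, adjusted p = 0.0015). The r was 0.67 in LSL and 0.30 in LB hens, a difference that was not tested. It was 0.55 in the first and 0.43 in the second array set. The pair did not pass in LB hens alone or in the second array set alone, which were 2 of 16 alternatives. The r lay between 0.43, without LSL hen 1, and 0.57, without LB hen 54, when 1 hen was left out at a time. It was 0.46 without the 2 hens farthest from the median of PVALB. LSL hen 1 was low for both genes, with GAD1 at -0.50 and PVALB at -0.55 from the mean of its group. Of all probe sets, 0.924% had an r with PVALB A as far from 0, with GAD1 and PVALB B counted. Probe set B of PVALB had an r of 0.54 with GAD1.

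Probe set A of CALB1 and GAD1 went in opposite directions, with an r of -0.38 (permutation test p = 0.0024, adjusted p = 0.008) and a rho of -0.41 (permutation test p = 0.00256, adjusted p = 0.00853). The r was -0.37 in LSL and -0.44 in LB hens and -0.37 and -0.40 in the first and second array set. LB hen 54 was high for CALB1 (0.89), and without it r was -0.35, while it was -0.40 without the 2 hens farthest from the median of CALB1. Without hens 1, 33 and 54 it was -0.29 and did not pass (permutation test adjusted p = 0.08), and with the mean of the 3 probe sets of CALB1 it was -0.22 (permutation test adjusted p = 0.179). The pair did not pass in 6 of 16 alternatives. Of all probe sets, 1.89% had an r with CALB1 A as far from 0, and 4.37% had one with GAD1. Probe sets B and C of CALB1 had an r of -0.045 and 0.041 with GAD1.

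**Figure D4:**
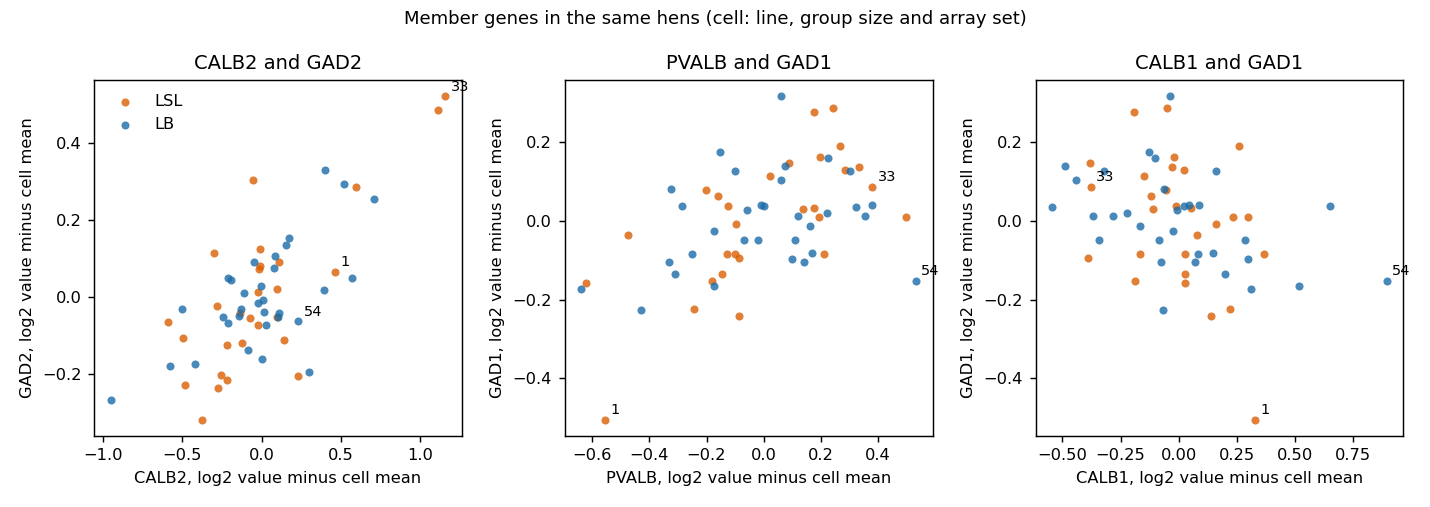
Log2 value minus the mean of the hen's line, group size and array set for the 3 pairs of genes that passed the test. Main probe sets are shown, with 1 point per hen and the hens 1, 33 and 54 numbered. Hens high for CALB2 are high for GAD2 (r = 0.73), hens high for PVALB tend to be high for GAD1 (r = 0.50), and hens high for CALB1 tend to be low for GAD1 (r = -0.38).

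The other 7 pairs did not pass. PVALB and GAD2 had an r of 0.30 (permutation test p = 0.0462, adjusted p = 0.113) and a rho of 0.26 (permutation test adjusted p = 0.137). The r of this pair was 0.17 in the first and 0.47 in the second array set, where PVALB and GAD1 had 0.43. It passed in 4 of 16 alternatives. GAD1 and GAD2 had an r of 0.28 (permutation test p = 0.0563, adjusted p = 0.113) and a rho of 0.24 (permutation test adjusted p = 0.153), and passed in 2 of 16 alternatives. The r of different pairs were not tested against each other. CALB1 had an r of -0.21 with GAD2, -0.17 with PVALB and -0.038 with CALB2. CALB2 had an r of -0.058 with PVALB and -0.017 with GAD1. The pair CALB1 and PVALB depended on LB hen 54, which was the highest hen for both genes (0.89 and 0.53 above the mean of its group), for without it r was -0.35 (permutation test adjusted p = 0.025).

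The genes most like GAD2 and CALB2 between hens were partly the same, and those of GAD2 included a gene of the striatum. Here and below, r with other genes was read at the main probe set, so what is given for GAD2 holds for probe set A. Over the 60 hens GAD2 was followed most closely by SOSTDC1, an inhibitor of BMP and Wnt signals (r = 0.80), ISL1, a transcription factor of striatal neurons (r = 0.79), CBLN3 (r = 0.76) and IAPP, amylin (r = 0.76). CALB2 was followed by SOSTDC1 (r = 0.78), PTPDC1 (r = 0.76), ELOVL1, an elongase of fatty acids (r = 0.73), and GAD2. The ephrin EFNB1 was among the 2 genes most opposed to both, with an r of -0.68 with GAD2 and -0.65 with CALB2, and the GABA B receptor subunit GABBR2 was the other for CALB2 (r = -0.69). For GAD2 the other was MPPED1 (r = -0.66). By comparison, 0.597% of all probe sets had an r of at least 0.5 with GAD2 and 1.04% with CALB2.

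PVALB and GAD1 were followed by other genes. For PVALB these were SIX3 (r = 0.80), a transcription factor of the developing forebrain, PATJ (r = 0.79), FIGN (r = 0.78) and STRBP (r = 0.75), with FKBP1A (r = -0.71) and FAM20A (r = -0.63) most opposed. SIX3 had an r of 0.80 with PVALB in LSL hens alone and also in LB hens alone. The line difference of SIX3 was -0.27 ± 0.11 (limma adjusted p = 0.0773) and those of PATJ, FIGN and STRBP lay between -0.27 and -0.15, and none of the 4 was called. For GAD1 they were JADE2 (r = 0.77), the synaptic scaffold DLG1 (r = 0.72), SULF1 (r = 0.71) and EPS15 (r = 0.69), with LSAMP (r = -0.71) and SELENOW (r = -0.69) most opposed. Without hens 1, 33 and 54 the r with GAD1 was 0.71 for JADE2, 0.61 for DLG1, 0.66 for SULF1 and 0.60 for EPS15. It was -0.64 for both LSAMP and SELENOW. CALB1 was followed by SLF1 (r = 0.68), INHBB, a subunit of activin and inhibin (r = 0.66), PLEKHD1 (r = 0.65) and the calcium-binding CASQ2 (r = 0.65), with RASL10B (r = -0.58) and BHLHE40 (r = -0.56) most opposed. Without hens 1, 33 and 54 the r with CALB1 was 0.69 for SLF1, 0.64 for INHBB, 0.52 for PLEKHD1 and 0.49 for CASQ2. That of PLEKHD1 was 0.35 in LSL and 0.75 in LB hens. Of these 4 genes only SLF1 was called between the lines (0.30 ± 0.057, limma adjusted p = 3.28e-05).

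**Figure D5:**
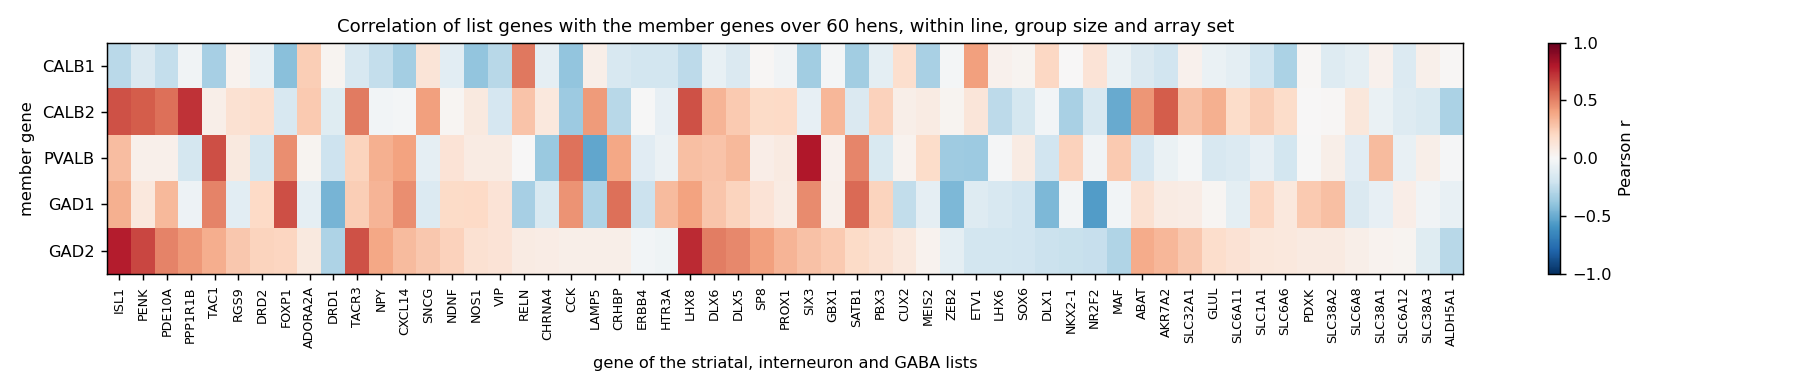
Pearson r over 60 hens (colour) of the 5 genes (rows) with the genes of the lists of striatal neurons, interneurons and GABA handling (columns), on values centred within line, group size and array set. The 5 genes are shown at their main probe sets. GAD2 and CALB2 are red over ISL1, PENK and LHX8, and PVALB is darkest over SIX3.

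Some markers of striatal projection neurons, and LHX8 of the ventral forebrain, moved with GAD2 and CALB2. Of the 10 measured striatal markers, 2 had an r of at least 0.5 with GAD2 (ISL1, and PENK with 0.67) and 4 with CALB2, among them PPP1R1B, the phosphoprotein DARPP-32 of striatal neurons (0.72), ISL1 (0.63) and PENK (0.61). Their median r was 0.32 with GAD2 and 0.21 with CALB2, against 0.15 with GAD1, 0.052 with PVALB and -0.11 with CALB1. LHX8, a transcription factor of cholinergic and ventral forebrain neurons, had an r of 0.75 with GAD2 and 0.64 with CALB2. The mean of the striatal markers ranged between -0.39 and 0.74 (median -0.0090) in LSL hens, against -0.30 to 0.41 (median -0.087) in LB hens. Markers of oligodendrocytes also moved with CALB2, with a median r of 0.42 over 7 genes, among them UGT8 (0.58) and CNP (0.57). Genes of other lists reached an r of 0.5 with GAD2 as well. Of 16 interneuron peptides and messengers 2 did (PENK again, and TACR3 with 0.64, median r 0.14). So did 2 of 19 interneuron transcription factors (median r 0.10) and 1 of 7 astrocyte genes (SLC1A2 with 0.56, median r -0.044). With CALB2, 2 of 16, 1 of 19 and 1 of 7 did (median r 0.041, 0.060 and -0.021). What these genes contribute to the values of GAD2 and CALB2 was not tested.

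With PVALB went TAC1, the precursor of substance P (r = 0.65), TCF7L2, a gene of the thalamus (r = 0.63), and CCK, cholecystokinin (r = 0.54), and against it LAMP5 (r = -0.52). With GAD1 went FOXP1, like TAC1 a gene of the striatal list (r = 0.64), SATB1, a transcription factor of interneurons (r = 0.56), and CRHBP (r = 0.55). Against it went NR2F2 (r = -0.56), a transcription factor of interneurons from the caudal ganglionic eminence of mammals. LSL hen 1 was the lowest hen for GAD1 (-0.50), FOXP1 (-1.93) and TAC1 (-2.27), and low for PVALB (-0.55), from the mean of its group. The r of FOXP1 with GAD1 and of TAC1 with PVALB were not calculated without hen 1. CALB1 had an r of 0.52 with RELN, reelin. Most genes of the lists that held these genes did not reach an r of 0.5. With PVALB, 1 of 8 tectal and thalamic genes did (median r 0.094) and 1 of 10 striatal genes (median r 0.052). With GAD1, 1 of 10 striatal genes did (median r 0.15). Of 19 interneuron transcription factors, 1 did with GAD1 and 1 had an r of at most -0.5 (median r -0.027). Of 16 interneuron peptides and messengers, 2 did with PVALB, 1 with GAD1 and 1 with CALB1 (median r 0.082, 0.19 and -0.17). SLC32A1, the vesicular GABA transporter that all GABA neurons share, had an r of 0.27 with GAD2 and 0.075 with GAD1. Of the markers of the cerebellum, CBLN1 had an r of 0.40 with CALB1 and 0.28 with PVALB. LB hen 54 was the highest hen for each of these genes (CBLN1 3.61, CALB1 0.89 and PVALB 0.53 above the mean of its group). For CBLN1 the hens other than 1, 33 and 54 reached at most 0.43, and these r were not calculated without hen 54. Without the 3 calcium buffers, which were part of the list, the mean of the 7 cerebellar markers was -0.39 to 0.31 in LSL hens (median -0.11), against -0.25 to 1.74 in LB hens (median -0.061). Between the lines, none of these 7 was higher and 2 were lower in LSL, CBLN1 (-1.04 ± 0.15, limma adjusted p = 2.23e-07) and ITPR1 (-0.12 ± 0.042, limma adjusted p = 0.0333). CBLN1 was thus lower in LSL together with PVALB, and its part in the PVALB difference was not tested. With the 3 buffers the list held 3 lower genes, and 2 without LB hens 7, 8 and 16. PVALB was still called there, so CBLN1 or ITPR1 was not. Of all genes, 22.4% were called, 10.3% higher and 12.1% lower, and the cerebellar count was not tested against these shares. Without hen 54 the differences between the lines were 0.23 for CALB1 A and -0.38 for PVALB A, and both were called.

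The other genes of GABA handling did not move one way between the lines. With 1 probe set per gene, 22.4% of all genes were called, 10.3% higher and 12.1% lower in LSL, and the median difference of all genes was -0.0063. Without GAD1 and GAD2, 14 genes of GABA synthesis, packaging, uptake and breakdown were measured, of which 3 were higher and 2 lower in LSL and 9 were not called, with a median difference of 0.028. Higher were AKR7A2, an aldehyde reductase of succinic semialdehyde (1.12 ± 0.032, limma adjusted p = 1.97e-37), SLC6A6, the taurine transporter (0.55 ± 0.11), and PDXK, which makes the cofactor of the decarboxylases (0.19 ± 0.032). Lower were SLC38A1, a glutamine transporter (-0.58 ± 0.072), and ALDH5A1, which oxidizes succinic semialdehyde (-0.21 ± 0.050). The breakdown enzyme ABAT differed by 0.35 ± 0.17 (limma adjusted p = 0.147) and SLC32A1 by -0.0060 ± 0.041 (limma adjusted p = 0.95).

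Among interneuron genes, none of the 19 measured transcription factors was higher in LSL and 4 were lower, with a median difference of -0.034. Of all genes, 22.4% were called between the lines, 10.3% higher and 12.1% lower. The counts of this and the following lists were not tested against these shares. The 4 were MAF (-0.38 ± 0.081), which is needed by interneurons of the medial ganglionic eminence in mice, NR2F2 (-0.28 ± 0.087), MEIS2 (-0.18 ± 0.060) and DLX1 (-0.14 ± 0.044). LHX6, another factor of the medial ganglionic eminence, differed by 0.043 ± 0.042 (limma adjusted p = 0.561). Of 16 peptides and messengers, 2 were higher and none lower, namely PENK, proenkephalin (0.58 ± 0.18), and CRHBP (0.24 ± 0.073). Of 13 genes of fast-spiking channels and perineuronal nets, the matrix that surrounds many parvalbumin cells, none was higher and 2 were lower in LSL, the sodium channel SCN1A (-0.44 ± 0.10) and versican, VCAN (-0.22 ± 0.059). The potassium channels KCNC1 and KCNC2, which are typical of fast-spiking cells, differed by -0.026 ± 0.096 and 0.10 ± 0.11 and were not called. Between hens, VCAN had an r of -0.42 with PVALB.

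Other calcium-binding proteins of the EF-hand family went both ways. Of 39 measured genes 7 were higher and 4 lower in LSL, with a median difference of 0.0093. SRI, sorcin, had the difference farthest from 0 of the list (5.86 ± 0.48) and was part of it because its difference was known, and it was followed by CHP1 (0.43 ± 0.090), KCNIP4 (0.40 ± 0.074) and CIB2 (0.39 ± 0.11). S100A11 (-0.36 ± 0.061) and CALML4 (-0.32 ± 0.077) were the lowest. None of the 18 measured genes of vitamin D and calcium transport was called by limma. Among marker lists, 2 of 7 astrocyte genes were lower (SPARCL1, 2.01-fold lower, and FABP7, -0.23 ± 0.071). Only 1 of these 2 was called as lower without LB hens 7, 8 and 16. Of the pallial genes 1 of 8 was lower (MEF2C, -0.95 ± 0.14). Of 10 striatal genes 1 was higher (PENK) and 1 lower (DRD1, -0.31 ± 0.086). No gene of 7 oligodendrocyte genes was called, and 2 of 9 general neuronal genes were higher. Of the tectal and thalamic genes 1 of 8 was higher, of blood and vessel genes 1 of 6 was higher, and of skeletal muscle genes 1 of 6 was higher and 1 lower. No gene of any of these lists was called between the group sizes by limma.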

How the data were processed

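RNA of the posterior cerebrum of 60 hens was hybridized to Affymetrix chicken arrays. The authors made the deposited log2 values with RMA in GeneSpring GX. Centring left every probe set with a median of 0 within each array set, so no filter on low expression could be applied, and centring removes any difference between the array sets. limma 3.58.1 (R 4.3.3; lmFit, eBayes) was fitted to all 38535 probe sets with the array set and, for the group size and side, the line as terms, with Benjamini-Hochberg adjustment over all probe sets. The unpaired t-test of the methods was an alternative. The precision is limited by the number of arrays. Which hens shared a compartment is not given in the sources used here. They were treated as independent, so p-values may be too small. Symbols came from the probe table (27178 probe sets with 1 symbol, 177 with several, 11180 with none), and 26863 were found in the RefSeq table of GRCg7b. For covariation, values were centred within line, group size and array set, and labels were permuted 100000 times within these cells (two-sided). Named are all probe sets of the 5 genes, up to 4 genes per list with the differences farthest from 0 among those called, and the 4 genes with the highest and 2 with the lowest r for each of the 5. Further list genes were named after their values were seen. The members, lists and rules were chosen with earlier results of these data known. For list genes the probe set whose SD within cells was largest was read. Fits were tested on simulated data.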

Additional observations from a re-analysis of the deposited data

How the results depend on the processing

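The lower PVALB value in LSL at probe set A was called in all 18 alternatives, and the pair CALB2 and GAD2 passed in all 16. Of the 10 probe sets, 4 were called between the lines in the main analysis, and 2 were in hens 1 to 30 alone, 1 in hens 31 to 60 alone, 1 in compartments of 54 alone, 1 in compartments of 36 alone, 2 without LB hens 7, 8 and 16, 2 with the methods' t-test and 2 without LSL hen 1. The number lay between 2 and 4 when each of the 60 hens was left out in turn. CALB1 A lost its call in 9 of 18 alternatives, CALB2 A in 11 and PVALB B in 4. Of the gene pairs 3 passed, against 1 in LB alone, 1 in hens 31 to 60 alone and 6 without the 2 hens farthest from the median. Of the probe set pairs of 1 gene 4 passed, against 2 in LSL alone, 2 in LB alone and 2 when centred within the array set only. Over the whole array 7051 probe sets were called between the lines, against 2996 in hens 1 to 30 alone and 3581 in compartments of 36 alone. Between the group sizes 4 were called, against 0 to 127 over the alternatives, the highest number being that of hens 31 to 60 alone, and the interaction called 1 in hens 1 to 30 alone. For group size, interaction and side, 0 probe sets of the 5 genes were called by limma in every alternative run. Part of these alternatives hold fewer hens, and for the other changes the cause was not tested.

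In 43 of 515 alternatives of single values the sign turned, and none of these values was called in the main analysis. Line differences turned for CALB1 B (0.0055 in hens 31 to 60, 0.0066 without LB hens 7, 8 and 16, 0.081 in compartments of 36), GAD2 A (0.060 in hens 1 to 30, 0.0091 on the right side, 0.027 in compartments of 54) and GAD2 B (-0.063 in hens 31 to 60, -0.0049 without LB hens 7, 8 and 16, -0.00043 with the actin difference as a covariate, -0.029 with array weights, -0.052 in compartments of 54, -0.011 without LSL hen 33, -0.023 without hens 1, 33 and 54). Group size differences turned for CALB1 A (-0.017 in hens 31 to 60, -0.012 with the actin covariate, -0.0030 on the right side), CALB2 A (0.024 without LB hens 7, 8 and 16, 0.023 with the actin covariate, 0.014 after quantile normalization, 0.049 in LSL alone, 0.015 without hens 1, 33 and 54), GAD1 (0.033 in hens 1 to 30, 0.0063 on the right side, 0.017 in LSL alone), GAD2 A (0.0058 in hens 31 to 60, 0.013 without LB hens 7, 8 and 16, 0.0070 with the actin covariate, 0.010 in LSL alone) and PVALB A (0.042 in hens 1 to 30). Correlations turned for CALB1 and CALB2 (0.027 by Spearman rho, 0.18 in LB, 0.058 with the actin difference removed, 0.046 when centred within the array set only, 0.057 without LSL hen 33), CALB1 and PVALB (0.094 in hens 31 to 60), CALB2 and PVALB (0.095 in LSL, 0.23 in hens 31 to 60, 0.018 with the actin difference removed), CALB2 and GAD1 (0.054 in LSL, 0.00091 in hens 1 to 30, 0.081 without LSL hen 1, 0.059 without hens 1, 33 and 54) and CALB1 B and C (-0.13 in LSL).

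The alternatives that left out hens 1, 33 or 54 were chosen after seeing the data, as were the 60 fits without 1 hen and the test between array sets. No paired analysis was possible because no 2 hens carry the same number. Centred values give no signal over background, so dim probe sets could not be told from bright ones.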
